A study of Mus musculus with 18 samples.

Results

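The livers of mice that had sham surgery differed from each other in how much of their sequenced RNA came from mitochondrial DNA, and the 6 sham libraries, of 18 in the series, were compared with each other on that measure. The mitochondrial share of a library is the summed count of the 37 genes on chromosome MT over the summed count of all genes. The 3 libraries with a share under 15% (sham1, sham3 and sham4, here low-share) were set against the 3 over 15% (sham2, sham5 and sham6, here high-share), and the comparison ran across the genes of the other chromosomes, here nuclear genes. The classes were thus chosen by a measured value, the count share of chromosome MT. The study measured RNA of liver from wild-type C57BL/6 mice, acclimated for 7 days, in 3 groups of 6 libraries. Sham mice were anaesthetised, disinfected and opened by laparotomy, with no vessel clipped. In the groups IR and IR-Ori the portal triad of the median and left lobes was clipped for 1 h, which deprives about 70% of the liver of blood, followed by 6 h of reperfusion. IR-Ori mice were also given oridonin, a plant diterpenoid, of which the sources used here give neither dose nor route nor time. They do not give the age or sex of the mice either. All libraries were made from 1 ug of total RNA with the same kit. Whether polyadenylated RNA was selected or ribosomal RNA removed is not given there.

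The split into low-share and high-share came from the sequenced libraries themselves. It is no treatment, and no label of the study separates these 6 libraries. Separate animals are not stated for the libraries of a group. The p-values therefore weigh the difference between the classes against the spread within them, for these samples only, and both may be technical.

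A hepatocyte holds very many mitochondria, and each carries several copies of a small circular genome. That genome is transcribed inside the organelle by its own polymerase into long precursors, which are cut into the messengers of a few respiratory chain subunits, the ribosomal RNAs and the transfer RNAs. The other subunits, the import machinery and the mitochondrial ribosomal proteins come from nuclear genes, so that the respiratory chain is the product of 2 genomes. In RNA sequencing the mitochondrial messengers compete for reads with the messengers of the nucleus, and their share is used in practice both as a reading of mitochondrial content and as a mark of RNA or cell quality.

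The mitochondrial share was 10.3%, 11.2% and 12.4% in sham1, sham3 and sham4, and 42.8%, 27.4% and 27.0% in sham2, sham5 and sham6. The means were 11.3 ± 1.05% and 32.4 ± 8.99% (SD, n = 3 each), given as a description because the share chose the classes. The nearest libraries on either side of 15% were sham4 at 12.4% and sham6 at 27.0%. The low-share libraries held 18247411, 19798188 and 17413256 counts in all, and the high-share ones 12755980, 13979945 and 16743838, so that total depth moved with the class without overlap. Over nuclear genes alone the totals were 16359301, 17580463 and 15247500 against 7301258, 10153064 and 12219783 counts. sham2 stood apart, with the highest share and the lowest depth of the 6.

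Within the nuclear counts, which did not enter the rule except through their sum, protein-coding genes took 97.7 ± 0.339% in the low-share and 95.7 ± 1.28% in the high-share libraries. Long intergenic noncoding RNAs (lincRNA) took 0.386 ± 0.0506% and 0.665 ± 0.177%. The 10 largest nuclear genes took 16.7 ± 0.521% and 13.2 ± 3.6% (SD, n = 3 each). The classes did not overlap in any of these 3 measures. An exact two-sided permutation test over the 20 splits of 3 against 3 gave p = 0.1 for each (adjusted p = 0.1 over the 3), which is the smallest p this design allows.

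**Figure D1:**
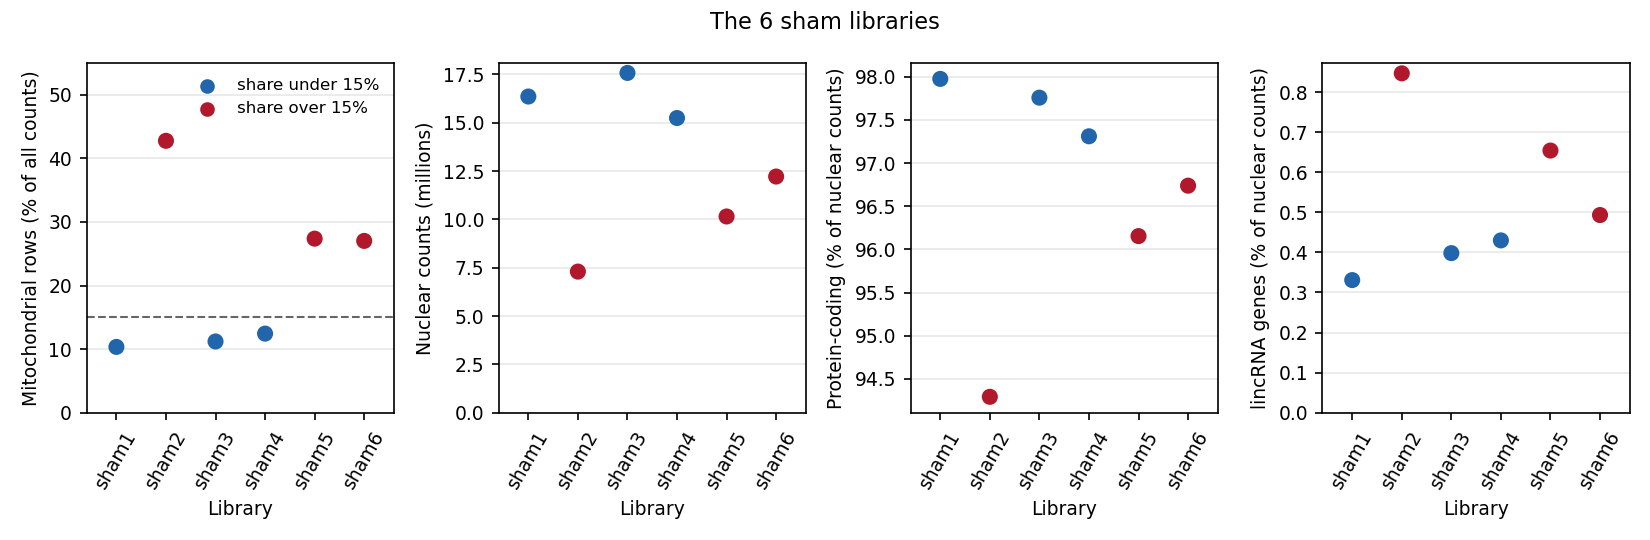
Each point is 1 sham library, blue under and red over a mitochondrial share of 15% (dashed line), with the share of mitochondrial rows, the nuclear counts and the percent of nuclear counts in protein-coding and lincRNA genes on the vertical axes. The low-share libraries lie between 10.3% and 12.4% and the high-share ones between 27.0% and 42.8%, and sham2 lies farthest from the low-share libraries in all 4 panels.

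The mitochondrial rows were high together, and their make-up was much alike in both classes. Messengers made up 96.9% to 97.6% and ribosomal RNA 2.17% to 2.80% of the mitochondrial counts of a library. mt-Co1, a catalytic subunit of complex IV, took 35.6% of mitochondrial counts in the low-share and 34.0% in the high-share libraries. mt-Cytb of complex III took 19.5% and 20.4%. The complex I subunits mt-Nd2, mt-Nd1 and mt-Nd4 took 13.4% and 13.9%, 11.3% and 10.6%, and 9.37% and 10.1%. As a share of all counts, mitochondrial messengers were 2.86 times as large in the high-share class as in the low-share class, and single messengers ranged from 2.70 to 4.84 times. The largest of these ratios belongs to mt-Atp6, which held at most 0.108% of the mitochondrial counts of any library. The values are a description, since all these rows formed the share. mt-Co2, mt-Co3 and mt-Atp6, which encode subunits of complex IV and ATP synthase, each held at most 0.134% of mitochondrial counts in a library, and mitochondrial sequence is also held by rows of nuclear genes.

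Such rows are pseudogenes in nuclear DNA that descend from mitochondrial DNA. Of 14031 tested nuclear genes with a transcript in the reference annotation, 9 had transcripts of which at least 50% of the 25-base words also occur in the mitochondrial transcripts, and in 5 of the 9 every word did. Their counts cannot be told apart from those of mitochondrial RNA, so they belong with the measure that chose the classes. The 9 rows held 0.0363%, 0.0468% and 0.0400% of nuclear counts in sham1, sham3 and sham4 and 0.548%, 0.144% and 0.198% in sham2, sham5 and sham6. Gm10925 stood at 177 scaled FPKM in the low-share and 1043 in the high-share libraries, Gm29216 at 100.8 and 1249, and Gm28437 at 153 and 602 (means of 3 libraries). Of the 9, 8 are among the nuclear genes called higher, all but Gm10222, which had 31.2 and 23.3 scaled FPKM. A fit without the 9 rows, chosen after seeing the data, called 1097 genes higher and 1118 lower.

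Among 14271 nuclear genes tested, 2225 (15.6%) differed between the classes in edgeR's quasi-likelihood test at an adjusted p under 0.05. In the high-share libraries 1104 (7.74%) were higher and 1121 (7.86%) lower. Lower genes included enzymes of cholesterol synthesis, glycolysis, glucuronidation and the tricarboxylic acid cycle and subunits of the respiratory chain that the nucleus encodes. Higher genes included splicing factors, chromatin regulators, hosts of small nucleolar RNAs and a few antiviral and cytokine-signalling genes. For the lists of splicing and chromatin genes, the share called either way was near that of all genes. The classes did not overlap for 3130 genes that were higher (21.9%) and 3101 that were lower (21.7%) in the high-share libraries. The first principal component of the 14271 genes held 56.4% of the variance and separated the classes, with sham1, sham3 and sham4 at -55.0, -40.9 and -41.6 and sham6, sham5 and sham2 at 20.8, 29.3 and 87.4.

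Levels of single genes are given as scaled FPKM, that is, FPKM computed over the nuclear total of a library times its TMM factor (trimmed mean of M-values). Fold changes are log2 values of high-share minus low-share with their standard error. Without TMM scaling, the nuclear totals alone called 2175 genes higher and 601 lower, so 78.4% of calls were higher against 49.6% with scaling. That setting moved the median of all genes from 0.03 to 0.36 on the log2 scale, and the TMM factors themselves ran from 0.845 to 0.922 in the low-share and from 0.986 to 1.31 in the high-share libraries. Directions are therefore relative to the median gene.

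The number of calls changed with the library left out, least without sham6 and most without sham4 and sham3. Leaving out sham1, sham2, sham3, sham4, sham5 or sham6 left 498, 1277, 201, 72, 936 and 2046 calls, of which 156, 463, 48, 10, 507 and 918 were higher. The sign held for all 2225 genes in the omissions that tested them (2217 genes were tested in all 6), and 61 genes were called in each, 5 higher and 56 lower. A kept sign was likely beforehand, because the genes were called on the same 6 libraries. The omission of a library also leaves 2 libraries in its class. sham2 was the most extreme of the high-share libraries for 944 of the 1104 higher genes and for 921 of the 1121 lower genes, against 8737 of all 14271 genes tested (61.2%).

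The libraries of injured liver, which the split did not use, were divided at the same share. IR4, IR5 and IR6 lay under 15% (14.5%, 9.65% and 6.52%), and IR1, IR2 and IR3 over it (42.9%, 22.1% and 19.5%). edgeR called 1607 of 14255 genes (11.3%) between these classes, 668 higher (4.69%) and 939 lower (6.59%). Leaving out IR1 or IR2 left 0 calls, with 3204 and 3201 genes at an unadjusted p under 0.05, leaving out IR3 left 305, and leaving out IR5 left 691. Of the 1104 genes higher in sham, 1066 were tested in IR. Of these, 957 (89.8%) had a positive fold change there, 258 (24.2%) were called higher and 4 lower, with a median log2 fold change of 0.85. Of the 1121 genes lower in sham, 1111 were tested in IR, 64 had a positive fold change (5.76%), 374 (33.7%) were called lower and 0 higher, with a median of -0.80. Over all genes tested in both groups, 49.5% were positive, 4.84% were called higher and 6.64% lower. The 632 genes called in the same direction in both were 40.3% of the IR calls and 29.0% of the sham calls among genes tested in both. Sham and IR share no library.

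Only IR-Ori5 (14.1%) lay under 15% in the group IR-Ori, whose other libraries ranged from 26.8% to 32.0%, so a slope over the share was fitted there. edgeR called 0 of 14638 genes, with 2753 at an unadjusted p under 0.05, and edgeR with DESeq2's size factors called 0 as well. Without IR-Ori6 the slope called 1452 genes. The slope was positive for 1083 of 1089 genes higher in sham and for 9 of 1103 lower in sham, against 51.6% of all genes. IR-Ori5 was the one library of IR-Ori far from the others in share.

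**Figure D2:**
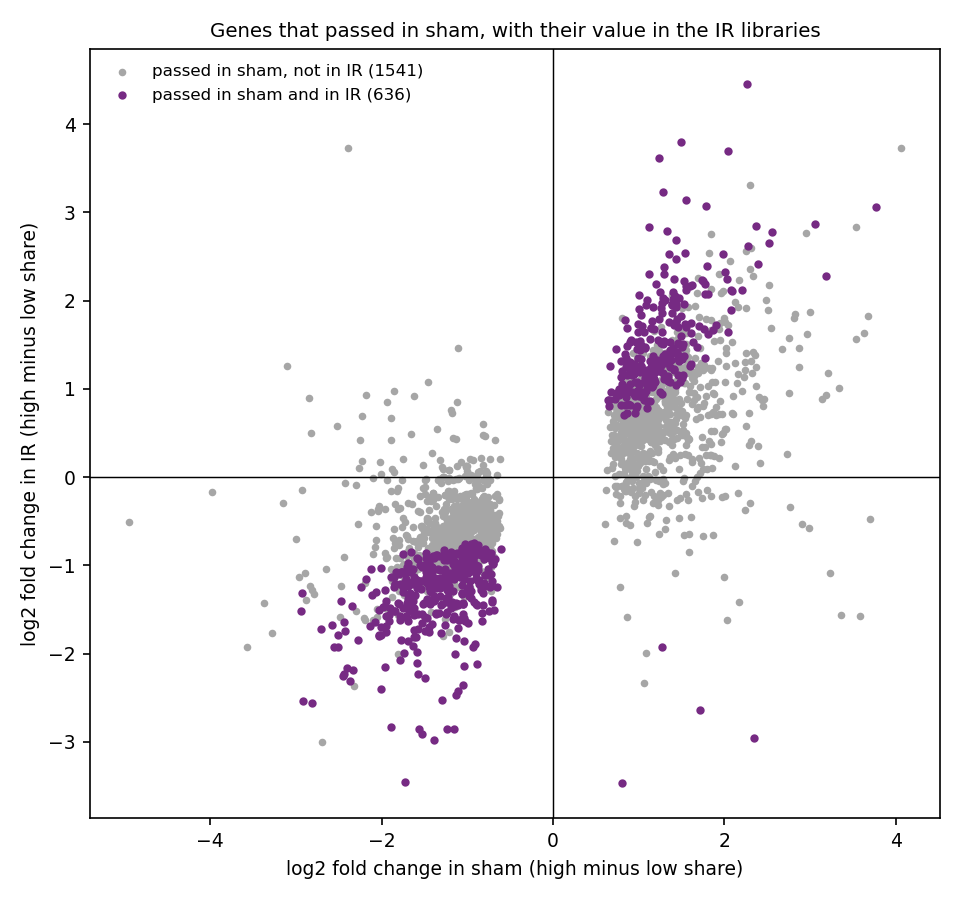
Each point is a nuclear gene called in sham and tested in IR, with the log2 fold change of high-share minus low-share libraries in sham on the horizontal and in IR on the vertical axis. Purple points were called in both groups and grey points in sham alone, and most points lie to the lower left and the upper right, where both fold changes have the same sign.

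The 4 genes with the smallest p, Ugt1a1, Spcs1, Rnf149 and Ugt1a9, were lower in the high-share libraries. Ugt1a1, the enzyme that conjugates bilirubin for excretion in bile, had 41, 32.1 and 41.6 scaled FPKM in sham1, sham3 and sham4 and 4.18, 5.64 and 5.34 in sham2, sham5 and sham6. Its log2 fold change was -2.92 ± 0.22 (edgeR adjusted p = 0.00334), and it passed in all 6 omissions (adjusted p up to 0.0192). In IR the same contrast was -2.54 ± 0.50 (edgeR adjusted p = 0.0206). The lowest low-share level lay far above the highest high-share level. Ugt1a9 and Ugt1a5, which attach glucuronic acid to other substrates, differed by -2.81 and -3.15 in log2, and both passed in all 6 omissions. Genes of the Ugt1a cluster share exons on 1 strand (chr1:88139681-88146719 for Ugt1a1, build GRCm39), so the counts of its members cannot be fully told apart.

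Spcs1 encodes a subunit of signal peptidase, which removes the leader from proteins entering the endoplasmic reticulum. It had 47.4, 36.7 and 31.3 scaled FPKM in sham1, sham3 and sham4 and 5.81, 4.82 and 7.03 in sham2, sham5 and sham6. The classes were far apart, with a log2 fold change of -2.71 ± 0.24 (edgeR adjusted p = 0.00475), and it passed in all 6 omissions (adjusted p up to 0.0312). In IR the log2 fold change was -1.72 ± 0.22 (edgeR adjusted p = 0.0108). Echdc1, which removes malformed intermediates of fatty acid synthesis, had 3.16, 2.38 and 3.23 scaled FPKM in the low-share and 0.633, 0.176 and 0.322 in the high-share libraries, a log2 fold change of -2.97 ± 0.42 (edgeR adjusted p = 0.0142), and it passed in all 6 omissions (adjusted p up to 0.0490). Spcs1 overlaps Glt8d1 and Echdc1 overlaps Rnf146 on the opposite strand, and whether the counting used strand is not given in the sources used here.

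Of the 61 genes called in every omission, 46 were called in IR as well. Besides those described with their pathways, the 56 lower ones included Tufm, the elongation factor of mitochondrial translation (-1.53), and Pcyt1a, which controls phosphatidylcholine synthesis (-1.7). They also included Ppat, the first enzyme of purine synthesis (-1.72), St6gal1, which puts sialic acid on glycoproteins (-1.8), and Scarb2, a receptor that brings an enzyme to the lysosome (-1.86), all as log2 fold changes. The 5 higher ones were Ttc41, Oas2, Plppr2, Gm15638 and Gm13340, and Gm13340 is one of the rows that share mitochondrial sequence. For most of the 61 the largest adjusted p in edgeR was 0.0490, without sham4, just under 0.05. Genes lost only there lay close by, such as Sdha at 0.0501 and Acat2 at 0.0520. Passing in all 6 omissions thus separates genes of nearly equal adjusted p without sham4.

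**Figure D3:**
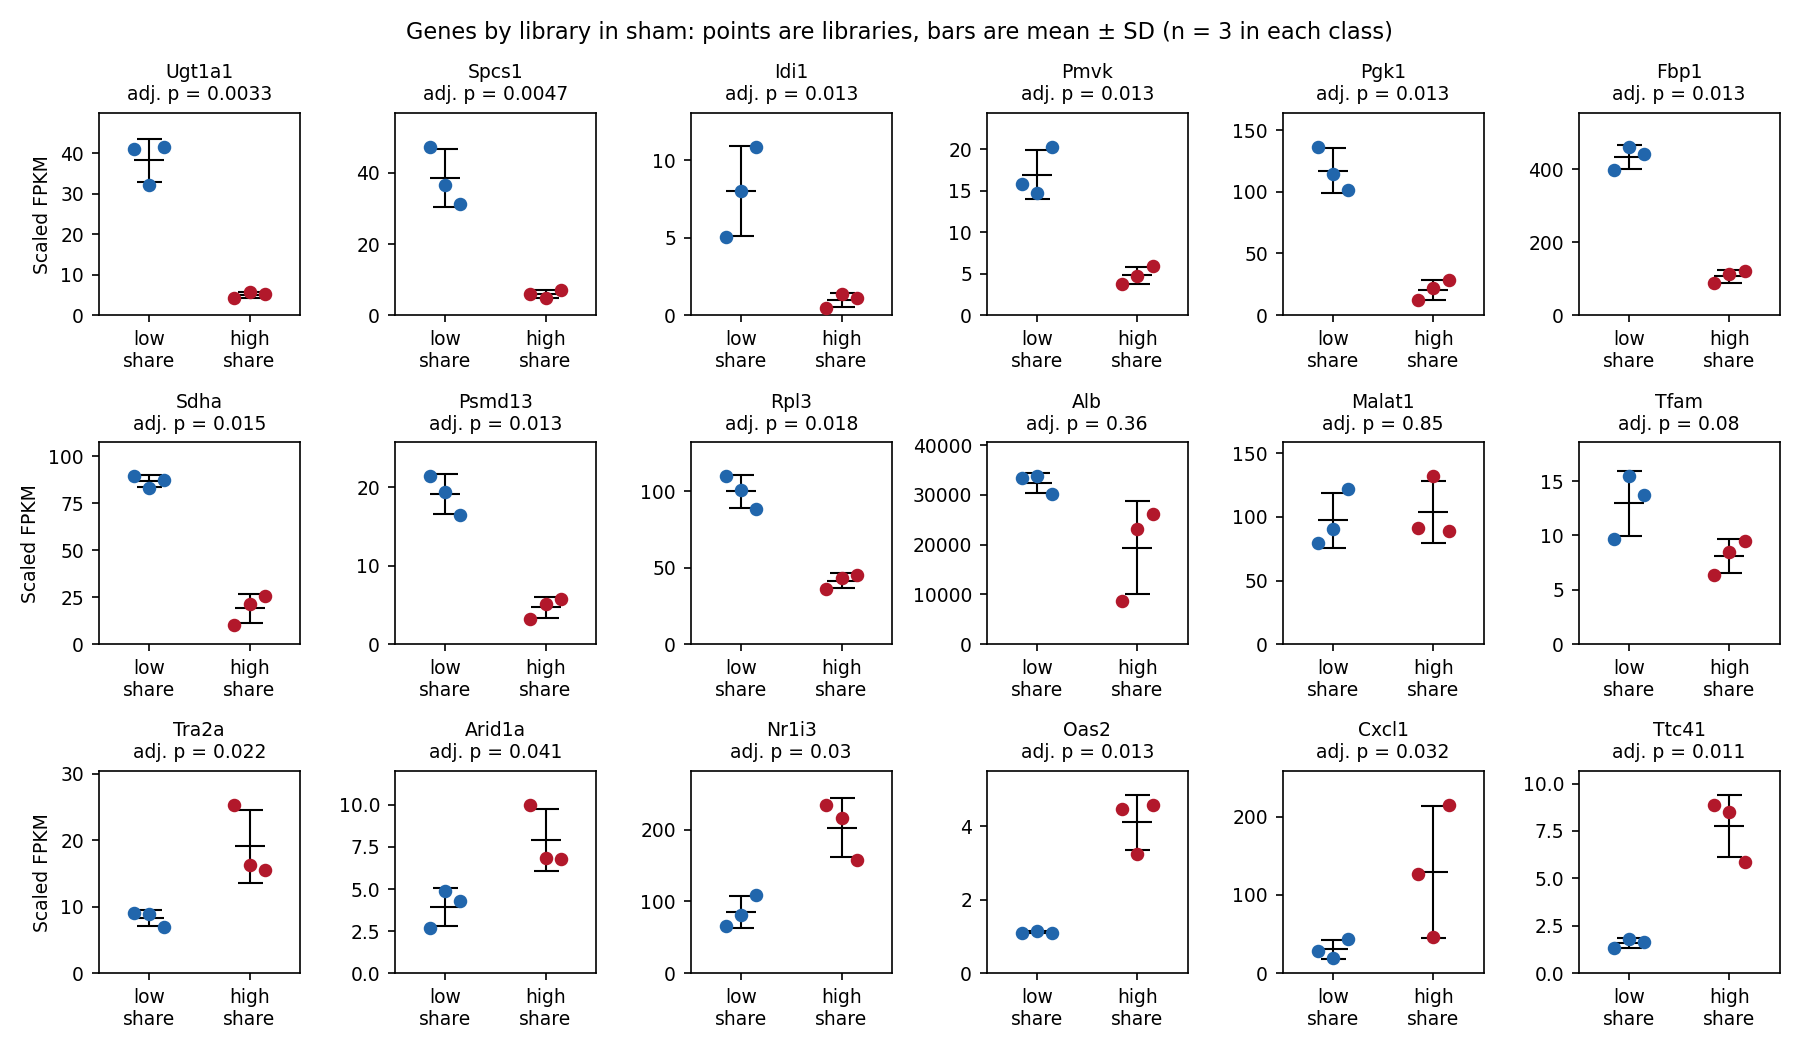
Points are the scaled FPKM of 18 genes in the 3 low-share (blue) and 3 high-share (red) sham libraries, with the mean and SD (n = 3) in black and the edgeR adjusted p above each panel. Ugt1a1, Spcs1, Idi1, Pmvk, Pgk1 and Fbp1 are separated downward and Oas2 and Ttc41 upward, while Alb, Malat1 and Tfam did not pass. No overlap was part of a rule that named Ugt1a1, Idi1 and Ttc41.

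Genes of cholesterol synthesis and uptake were lower in the high-share libraries. Of 24 genes tested, 15 passed lower and 0 higher, with a median log2 fold change of -1.39, beside 7.86% lower, 7.74% higher and a median of 0.03 over all genes. Without sham1, sham2, sham3, sham4, sham5 and sham6 the number lower was 11, 13, 4, 3, 11 and 16, while the median stayed between -1.22 and -1.61. Their summed level was 797, 872 and 1120 scaled FPKM in sham1, sham3 and sham4 and 274, 351 and 427 in sham2, sham5 and sham6. In IR edgeR called 0 of the 24, with 5 at an unadjusted p under 0.05, and the median was -0.16. The difference between the IR and sham contrasts passed for 0 of the 24, with 12 at an unadjusted p under 0.05 (smallest edgeR adjusted p = 0.127).

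The pathway builds cholesterol from acetyl-CoA through mevalonate and squalene. At its entry Acat2, which joins acetyl units in the cytosol, had 29.9, 26 and 31.9 scaled FPKM in sham1, sham3 and sham4 and 8.71, 11.6 and 12.2 in sham2, sham5 and sham6. Its log2 fold change was -1.43 ± 0.21, and it did not pass without sham4 (adjusted p up to 0.0520). Pmvk, the kinase that acts on phosphomevalonate, had 15.8, 14.7 and 20.3 against 3.78, 4.67 and 5.91 scaled FPKM and a log2 fold change of -1.82 ± 0.24, and it passed in all 6 omissions (adjusted p up to 0.0490). Idi1, which isomerises the isoprene unit, showed the largest difference of the list, with 5.06, 8.03 and 10.9 against 0.477, 1.35 and 1.14 scaled FPKM and a log2 fold change of -3.0 ± 0.41 (edgeR adjusted p = 0.0135), and it passed in all 6 omissions (adjusted p up to 0.0490). For these 3 genes no library of one class reached the other.

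Further down the pathway Fdps (-1.35), Fdft1 (-1.29), Sqle (-1.49), Cyp51 (-1.89), Msmo1 (-1.47), Nsdhl (-1.11) and Sc5d (-1.75), which carry the chain through squalene and lanosterol to the sterol, passed lower (log2 fold changes). Insig1, which retains the sterol sensor in the endoplasmic reticulum, had a log2 fold change of -1.84, and the sterol carrier Stard4 and the sterol-regulated protein Tmem97 had -1.47 and -1.55.

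Genes of this pathway are known to be driven by sterol-responsive factors, which work together with the factor NF-Y at CCAAT boxes. Because the members moved together, the promoters of 3 of them are shown, from RefSeq on build GRCm38.p6. Each is the 250 bases before the annotated start, 5′ to 3′ on the gene's strand, and capitals mark the CCAAT box on either strand (CCAAT or ATTGG). Idi1 (chr13:8885356-8885605, plus strand) and Pmvk (chr3:89454291-89454540, plus strand, the first of 2 listed starts) are the members that passed in all 6 omissions and have a promoter in the table, and Acat2 (chr17:12960726-12960975, minus strand) is a lower member without the motif.
Idi1: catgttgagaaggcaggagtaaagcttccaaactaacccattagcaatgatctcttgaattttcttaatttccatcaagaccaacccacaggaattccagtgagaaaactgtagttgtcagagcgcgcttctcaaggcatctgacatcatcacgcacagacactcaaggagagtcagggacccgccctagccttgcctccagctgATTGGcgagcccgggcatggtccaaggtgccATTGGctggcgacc
Pmvk: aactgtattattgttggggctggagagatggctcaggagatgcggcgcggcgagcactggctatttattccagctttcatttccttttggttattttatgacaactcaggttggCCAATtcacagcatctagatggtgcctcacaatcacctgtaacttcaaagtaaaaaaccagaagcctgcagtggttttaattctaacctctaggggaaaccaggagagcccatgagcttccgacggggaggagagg
Acat2: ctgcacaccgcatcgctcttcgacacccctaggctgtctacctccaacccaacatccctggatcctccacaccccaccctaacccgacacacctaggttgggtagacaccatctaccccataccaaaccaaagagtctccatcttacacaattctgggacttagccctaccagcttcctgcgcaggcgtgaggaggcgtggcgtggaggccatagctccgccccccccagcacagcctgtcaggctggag
Idi1 holds 2 such boxes, 14 and 45 bases before the start, and Pmvk holds 1. Of the 24 list genes 16 had a promoter in the table, and 14 of the 16 held CCAAT, against 34.5% of 27025 promoters of the same length. Among the 9 lower genes with a promoter, 8 held it. TCACNCCAC, a form of the sterol regulatory element read on both strands, was in 1 of the 16 and 0 of the 9, against 1.04% of promoters. A match describes the letters of this window alone and says nothing of binding.

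Enzymes that carry glucose carbon passed lower in the high-share libraries on both the breakdown and the storage side. Of 21 tested genes of hypoxia and glycolysis, 6 passed lower (Pgk1, Pgam1, Tpi1, Eno1, Egln3 and Ldha) and 0 higher, with a median log2 fold change of -0.32 that was 0.04 without TMM scaling. These calls were 28.6% of the list, against 15.6% of all genes. The number lower was 4, 6, 3, 1, 5 and 6 without sham1 to sham6 in turn. Pgk1, the first enzyme of glycolysis that yields ATP, had 137, 114 and 101 scaled FPKM in sham1, sham3 and sham4 and 11.9, 21.9 and 28.1 in sham2, sham5 and sham6. The log2 fold change was -2.51 ± 0.33 (edgeR adjusted p = 0.0135), and it passed in all 6 omissions (adjusted p up to 0.0490). In IR it was -1.78 ± 0.28. Pgam1 and Eno1, the next enzymes of the chain, had log2 fold changes of -2.12 ± 0.35 and -1.63 ± 0.27, and neither passed without sham4 (adjusted p = 0.0520 and 0.0571).

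Fbp1, which reverses a committed step of glycolysis in gluconeogenesis, had 397, 462 and 442 scaled FPKM in the low-share and 87.6, 111 and 121 in the high-share libraries. Every high-share library lay far below the lowest low-share one. Its log2 fold change was -2.03 ± 0.26 (edgeR adjusted p = 0.0135), and it passed in all 6 omissions (adjusted p up to 0.0490). It was the 1 gene to pass among 14 tested for gluconeogenesis and the fasting response. Of 18 glycogen genes 4 passed lower and 1 higher, with a median log2 fold change of -0.55. The share called was 7.14% for gluconeogenesis and 27.8% for glycogen, against 15.6% of all genes. Gbe1, the branching enzyme, had 17.1, 14 and 20.3 against 3.98, 3.6 and 5.57 scaled FPKM and a log2 fold change of -1.97 ± 0.25, and it passed in all 6 omissions (adjusted p up to 0.0490). Ppp1r3c (-2.06), Pgm1 (-1.28) and Stbd1 (-1.13) were lower as well, while Phkg2, the catalytic subunit of phosphorylase kinase, was higher by 0.85 ± 0.18. The glycogen genes lower numbered 3, 4, 1, 1, 2 and 3 without sham1 to sham6 in turn, and Phkg2 did not pass without sham1, sham3, sham4 or sham5 (adjusted p up to 0.0772).

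Lists of nuclear genes for mitochondrial proteins held more lower than higher calls, and for complex I the share lower was near that of all genes. Of 19 genes of the tricarboxylic acid cycle 8 passed lower and 0 higher, with a median log2 fold change of -0.68. Of 39 subunits of complexes II to V 11 passed lower and 0 higher (median -0.48). Of 37 nuclear subunits of complex I 3 passed lower, Ndufv1 and Ndufb8 among them, and 0 higher (median -0.32), so that 8.11% were called, against 7.86% lower over all genes. Of 77 mitochondrial ribosomal protein genes 13 passed lower and 1, Mrpl4, higher (median -0.42), and of 18 genes of mitochondrial chaperones, proteases and import 7 passed lower and 0 higher (median -0.68). Without TMM scaling these medians were all still negative (-0.03 for complex I), but 4 complex I subunits passed higher and 1 lower, and 3 complex II to V subunits passed higher. By the annotation of cell components in the deposited table, 235 of 1548 tested genes of the mitochondrion were lower (15.2%) and 75 higher (4.84%).

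Without sham1 to sham6 in turn, the number lower was 2, 9, 1, 1, 3 and 7 for the cycle and 3, 11, 2, 0, 5 and 10 for complexes II to V. It was 0, 3, 0, 0, 0 and 3 for complex I, 4, 11, 1, 0, 5 and 13 for the mitochondrial ribosome and 3, 6, 2, 0, 4 and 7 for chaperones and import. The counts were smaller without sham1, sham3, sham4 or sham5, and those without sham2 or sham6 were close to the full comparison.

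Sdha, the flavoprotein of complex II, had 89.7, 83.3 and 87.4 scaled FPKM in sham1, sham3 and sham4 and 10.5, 21.5 and 25.4 in sham2, sham5 and sham6. The low-share libraries agreed closely and lay more than 3 times above each high-share one, with a log2 fold change of -2.18 ± 0.33 (edgeR adjusted p = 0.0145), and it did not pass without sham4 (adjusted p up to 0.0501). Atp5b, the catalytic subunit of ATP synthase, had 219.7, 215 and 183 against 35, 58.7 and 65.5 scaled FPKM and a log2 fold change of -1.96 ± 0.31, and it did not pass without sham4 (adjusted p up to 0.0512). Sucla2, a subunit of succinyl-CoA synthetase, had 36.4, 31.3 and 31.4 against 7.44, 11.4 and 11.9 scaled FPKM. Its log2 fold change was -1.69 ± 0.24 and it passed in all 6 omissions (adjusted p up to 0.0490). Its partner Suclg1 had a log2 fold change of -2.03 ± 0.43, and it did not pass without sham1, sham3 or sham4 (adjusted p up to 0.0585).

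Hspa9, the chaperone that pulls proteins into the matrix, had 161, 184 and 160.4 scaled FPKM in the low-share and 37.5, 56 and 56.7 in the high-share libraries (log2 fold change -1.75 ± 0.27). Tomm20, a receptor on the outer membrane, had 11.2, 9.34 and 8.87 against 2.64, 3.18 and 4.36 scaled FPKM (log2 fold change -1.53 ± 0.23). Both were separated without overlap, and neither passed without sham4 (adjusted p = 0.0520 and 0.0501). Cox4i1 of complex IV did not pass, with 381, 376 and 291 against 133, 315 and 357 scaled FPKM and an adjusted p of 0.486 (edgeR). Its classes overlapped, and sham2 alone was far below the others.

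Among genes that transcribe and process the mitochondrial genome, the share called was not far from that of all genes. Of 35 tested, 3 passed higher and 1 lower in the high-share libraries, so 11.4% were called, against 15.6% of all genes. The median log2 fold change was -0.08, and 0.24 without TMM scaling. Polrmt, the mitochondrial RNA polymerase, had 3.1, 4.27 and 4.34 scaled FPKM in sham1, sham3 and sham4 and 9.21, 6.46 and 6.34 in sham2, sham5 and sham6. It was higher by 0.91 ± 0.23 (edgeR adjusted p = 0.0344), but it did not pass without sham1, sham2, sham3, sham4 or sham5 (adjusted p up to 0.0961). Ssbp1, which coats single-stranded mitochondrial DNA, was higher by 0.95 ± 0.25, but it did not pass in any of the 6 omissions (adjusted p up to 0.0982). Mterf1a, a mitochondrial transcription termination factor, was higher by 1.33 ± 0.30, but it did not pass without sham1, sham2, sham3 or sham4 (adjusted p up to 0.0809). The levels of all 3 did not overlap between the classes, as was also so in the higher direction for 21.9% of all genes tested. Grsf1, an RNA-binding protein of mitochondrial RNA granules, had a log2 fold change of -1.22 ± 0.29, and it did not pass without sham1, sham3 or sham4 (adjusted p up to 0.0781). Tfam, the factor that packs mitochondrial DNA and starts its transcription, did not pass, with 9.69, 15.5 and 13.7 against 6.4, 8.45 and 9.46 scaled FPKM, a log2 fold change of -0.68 ± 0.24 and an adjusted p of 0.0804 (edgeR).

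Most calls among genes of translation and protein export were in the lower direction. The share called was 38.7% for initiation and elongation factors and 24.1% for signal recognition, translocon and secretion, against 15.6% of all genes. Of 31 initiation and elongation factors 11 passed lower and 1, Eif5b, higher, with a median log2 fold change of -0.58. Eif6, which keeps the large ribosomal subunit from joining too early, had 12.5, 15.6 and 15 against 4.29, 6.69 and 6.39 scaled FPKM and a log2 fold change of -1.31 ± 0.23, and it did not pass without sham3 or sham4 (adjusted p up to 0.0578). The elongation factors Eef1a1 and Eef2 passed lower with log2 fold changes of -1.36 and -1.38. Without sham1 to sham6 in turn, 3, 11, 0, 0, 2 and 10 factors were lower. Of 29 genes of signal recognition, translocon and secretion 7 passed lower and 0 higher (median -0.70), among them the glycosylation subunits Ostc (-1.28) and Rpn2 (-1.25) and the receptor Srpr (-1.16), and 1, 3, 1, 1, 1 and 14 were lower in the omissions. Canx, a chaperone that folds glycoproteins, had 93.8, 73.8 and 78.6 against 18.3, 26.9 and 31.1 scaled FPKM and a log2 fold change of -1.69 ± 0.27, and it did not pass without sham4 (adjusted p up to 0.0520).

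Ribosomal protein genes were called in both directions, and for the large subunit the share called was near that of all genes. Of 47 large-subunit genes 5 passed lower and 3 higher, with a median log2 fold change of -0.14 that was 0.18 without TMM scaling. Of 33 small-subunit genes 3 passed lower and 0 higher (median -0.25, and 0.03 without TMM scaling). The share called was 17.02% for the large and 9.09% for the small subunit. Over all genes it was 15.6%, with 7.74% higher and 7.86% lower. Rpl4 had 378, 311 and 267 scaled FPKM in the low-share and 50.7, 81.6 and 134 in the high-share libraries, a log2 fold change of -1.84 ± 0.37, and it did not pass without sham1, sham3, sham4 or sham5 (adjusted p up to 0.0585). Rpl38, in contrast, had 111, 113 and 85.2 against 242, 183 and 198 scaled FPKM, a log2 fold change of 1.01 ± 0.22, and it did not pass without sham1, sham3 or sham4 (adjusted p up to 0.0887). Both genes were separated without overlap in opposite directions. Without sham1 to sham6 in turn, 1, 5, 0, 0, 2 and 4 large-subunit genes were lower and 0, 1, 0, 0, 1 and 1 higher, and 0, 3, 0, 0, 0 and 3 small-subunit genes were lower. Processed pseudogenes of such genes share sequence with them, and how the counting treated reads that match both is not given in the sources used here.

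Of 31 proteasome subunits 6 passed lower and 0 higher (median -0.60), and 1 passed higher and 1 lower without TMM scaling. Called were 19.4% of the proteasome list and 23.1% of the autophagy and lysosome list below, against 15.6% of all genes. Psmd13 of the regulatory particle had 21.5, 19.4 and 16.4 scaled FPKM in sham1, sham3 and sham4 and 3.19, 5.06 and 5.8 in sham2, sham5 and sham6. The separation was wide, with a log2 fold change of -2.03 ± 0.26 (edgeR adjusted p = 0.0135), and it passed in all 6 omissions (adjusted p up to 0.0490). Psmd13 overlaps Sirt3 on the opposite strand. The proteasome genes lower were 1, 5, 1, 1, 1 and 3 in the omissions of sham1 to sham6. Of 26 genes of autophagy and the lysosome 5 passed lower and 1 higher (median -0.58), and 2, 4, 2, 1, 3 and 7 were lower in the omissions. Npc2, which hands cholesterol out of the lysosome, had 15.3, 12.9 and 9.73 against 2.34, 3.66 and 4.01 scaled FPKM and a log2 fold change of -1.92 ± 0.27, and it passed in all 6 omissions (adjusted p up to 0.0490). Lamp1, an abundant lysosomal membrane protein, had a log2 fold change of -2.06 ± 0.42, and it did not pass without sham1, sham3 or sham4 (adjusted p up to 0.0602). Tfeb, a transcription factor of lysosomal genes, was higher by 0.98 ± 0.22, and it did not pass without sham1, sham2, sham3, sham4 or sham5 (adjusted p up to 0.0827).

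Among genes of hepatocyte metabolism most calls were lower in the high-share libraries. In bulk tissue, fewer cells of a type and less RNA per cell cannot be told apart. Of 24 cytochrome P450 genes of xenobiotic metabolism 6 passed lower and 0 higher (median log2 fold change -0.86), and of 28 genes of phase II conjugation 7 passed lower and 0 higher (median -0.78). The share called was 25% in each of these lists, against 15.6% of all genes. The P450 genes lower numbered 3, 4, 1, 0, 1 and 7, and the conjugation genes 2, 6, 2, 2, 3 and 11, without sham1 to sham6 in turn. Cyp2c29 had 294, 193 and 228 against 32.5, 28.2 and 68.1 scaled FPKM and a log2 fold change of -2.47 ± 0.39, and it did not pass without sham4 (adjusted p up to 0.0501). Cyp2b10, a target of the xenobiotic receptor Nr1i3, had 29.7, 11.1 and 7.86 against 0.791, 0.301 and 3.81 scaled FPKM, with sham1 far above the others, and a log2 fold change of -3.28 ± 0.79, but it did not pass without sham1, sham2, sham3, sham4 or sham5 (adjusted p up to 0.0917). Cyp2a4 had the largest fold change among the called genes, -4.95 ± 1.44, with 2.29, 218 and 7.95 against 1.56, 2.77 and 3.01 scaled FPKM, where sham3 alone was high and the classes overlapped, and it did not pass without sham2, sham3, sham4, sham5 or sham6 (adjusted p up to 0.213). Cyp2e1, an abundant P450 of the zone around the central vein, did not pass with 5087, 3406 and 3640.2 against 517, 1497 and 1995 scaled FPKM (edgeR adjusted p = 0.0608), although the classes did not overlap. Paralogs of the Cyp2 family are similar in sequence, so part of their reads may be shared.

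Of 18 periportal genes 6 passed lower and 0 higher (median -0.92), and of 18 pericentral genes 1, Gulo, passed lower (median -0.54). The share called was 33.3% and 5.56%, and 22.6% in the list of the urea cycle and amino acid catabolism, against 15.6% of all genes. Without sham1 to sham6 in turn, 1, 3, 0, 0, 2 and 4 periportal and 0, 1, 0, 0, 0 and 3 pericentral genes were lower, and no test of the difference between the zones was made. Cps1, the entry of the urea cycle, had 415, 418 and 378 scaled FPKM in the low-share and 132, 142 and 242 in the high-share libraries (log2 fold change -1.23 ± 0.34), and it did not pass without sham1, sham2, sham3, sham4 or sham5 (adjusted p up to 0.114). Ass1, a later enzyme of the cycle, had 1136, 1549 and 1022 against 198, 441 and 624 scaled FPKM (log2 fold change -1.55 ± 0.44), and it did not pass without sham1, sham3, sham4 or sham5 (adjusted p up to 0.126). Neither gene overlapped between the classes. Of 31 genes of the urea cycle and amino acid catabolism 6 passed lower and 1 higher (median -0.71), and 1, 5, 1, 2, 2 and 9 were lower in the omissions. The 2 genes of the branched-chain ketoacid decarboxylase went opposite ways, Bckdha with a log2 fold change of -1.67 ± 0.23 and Bckdhb with 1.03 ± 0.25. Bckdha passed in all 6 omissions (adjusted p up to 0.0490) and overlaps B3gnt8 on the opposite strand, while Bckdhb did not pass without sham1, sham3, sham4 or sham5 (adjusted p up to 0.115).

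In fatty acid synthesis 4 of 16 genes passed lower and 0 higher (median -1.02), with 2, 5, 2, 0, 2 and 6 lower in the omissions. Called were 25% of this list, against 15.6% of all genes. Fads1 and Fads2, the desaturases of polyunsaturated fatty acids, had log2 fold changes of -2.27 ± 0.38 and -1.97 ± 0.35. Acly, which makes cytosolic acetyl-CoA, was at -1.65 and Me1, which makes NADPH, at -1.87. Without sham4 none of these passed (edgeR adjusted p = 0.0501 for Fads1). Fasn, the synthase itself, did not pass, with 26.6, 26 and 109 against 43.3, 8.63 and 18 scaled FPKM in overlapping classes and the highest level in sham4.

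The abundant secreted proteins of hepatocytes mostly did not pass. Of 15 secretory markers 1, Trf, was lower and 0 higher, and the median was -0.75. Alb, serum albumin, had 33384, 33853 and 30174 scaled FPKM in sham1, sham3 and sham4 and 8691, 23183 and 26194 in sham2, sham5 and sham6, with sham2 far below the rest (log2 fold change -0.75 ± 0.56, edgeR adjusted p = 0.363). Trf, the iron carrier transferrin, had 5274, 4884 and 4337 against 589, 1677 and 1919 scaled FPKM and a log2 fold change of -1.79 ± 0.50, and it did not pass without sham1, sham3, sham4 or sham5 (adjusted p up to 0.106). The summed level of the 15 was 83177 to 93049.9 scaled FPKM in the low-share libraries and 33369 to 81634 in the high-share ones, so the defining hepatocyte markers were abundant in all 6. Of 34 complement and coagulation genes 5 passed lower and 1, Cfb, higher, with a median of -0.31 that was 0.01 without TMM scaling and 0, 5, 0, 0, 0 and 6 lower in the omissions. The share called was 6.67% for secretory markers and 17.6% for complement and coagulation, the latter near the 15.6% of all genes.

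**Figure D4:**
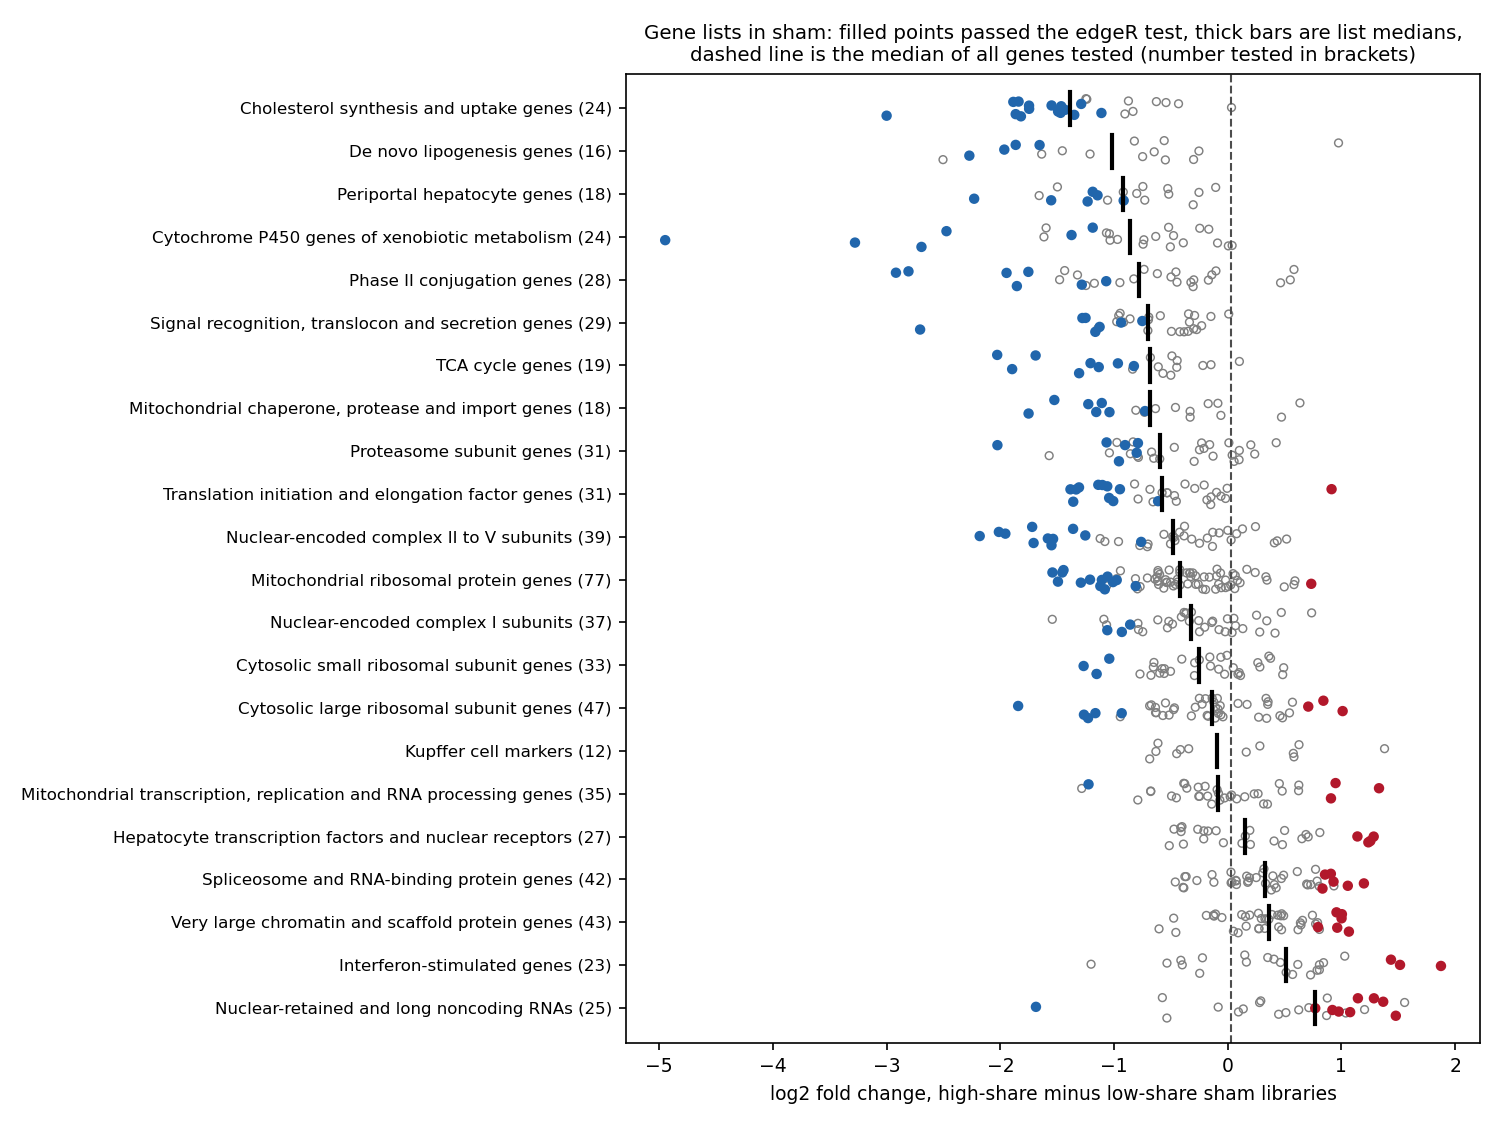
Each point is a gene of 1 of 22 lists at its log2 fold change between high-share and low-share sham libraries, filled where it passed edgeR's test (blue lower, red higher), with the list median as a bar and the median of all genes, 0.03, dashed. The cholesterol list has the lowest median, -1.39, and the list of long noncoding RNAs the highest, 0.77.

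A list of splicing genes and one of large chromatin proteins held higher calls and no lower ones, with a share called near that of all genes. Other genes of both kinds passed lower. Of 42 spliceosome and RNA-binding protein genes 6 passed higher and 0 lower (median log2 fold change 0.33), and of 43 very large chromatin and scaffold proteins 6 passed higher and 0 lower (median 0.36). These calls were 14.3% of the splicing and 13.95% of the chromatin list. Over all genes 7.74% were higher and 15.6% called either way. The number higher was 0, 6, 0, 0, 1 and 4 for splicing and 0, 1, 0, 0, 0 and 7 for chromatin without sham1 to sham6 in turn. Without TMM scaling 14 and 13 passed higher. Outside these lists, and chosen after their values were seen, the splicing factor Aar2 (-2.01) and the chromatin proteins Hmgn1 (-1.38), H2az1 (-1.39) and H2az2 (-1.12) passed lower (log2 fold changes). The called splicing genes of the list were Rbm25, Srsf11, Rbm5, Clk4, Srsf7 and Tra2a.

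Tra2a, a splicing activator, had 9.11, 8.86 and 6.97 scaled FPKM in sham1, sham3 and sham4 and 25.4, 16.3 and 15.5 in sham2, sham5 and sham6. Its log2 fold change was 1.2 ± 0.25 (edgeR adjusted p = 0.0222), and it did not pass without sham1, sham3 or sham4 (adjusted p up to 0.0827). sham2 was the highest, and the classes did not overlap. Arid1a, a subunit of the SWI/SNF chromatin remodeller, had 2.67, 4.88 and 4.28 against 10.01, 6.87 and 6.81 scaled FPKM and a log2 fold change of 1.0 ± 0.27, but it did not pass in any of the 6 omissions (adjusted p up to 0.104). Tnrc6a, which carries out silencing by microRNAs, had 8.38, 8.73 and 8.04 against 23.1, 16.1 and 13.5 scaled FPKM and a log2 fold change of 1.07 ± 0.25, and it did not pass without sham1, sham3, sham4 or sham5 (adjusted p up to 0.0977). The other chromatin genes called were Chd8, Kmt2a, Prkdc and Chd6.

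Of 25 long noncoding RNAs 8 passed higher and 1, Norad, lower, with a median log2 fold change of 0.77, and 0, 1, 0, 0, 1 and 6 were higher in the omissions. Called either way were 36% of this list, against 15.6% of all genes. Of the 8, 6 were hosts of small nucleolar RNAs (Snhg1, Snhg8, Snhg11, Snhg12, Snhg15 and Snhg17). Snhg12 had 6.82, 7.35 and 6.02 against 17.5, 12.4 and 12.7 scaled FPKM and a log2 fold change of 1.08 ± 0.21, and it did not pass without sham1, sham3 or sham4 (adjusted p up to 0.0711). Norad, which binds Pumilio proteins in the cytoplasm, had 16.8, 23.2 and 20.4 against 3.85, 8.47 and 6.4 scaled FPKM and a log2 fold change of -1.69 ± 0.30, and it did not pass without sham3 or sham4 (adjusted p up to 0.0571). The abundant nuclear RNAs Malat1 and Neat1 did not pass, with log2 fold changes of 0.09 ± 0.30 and 0.62 ± 0.31 and adjusted p of 0.847 and 0.173 (edgeR). Malat1 overlapped between the classes and Neat1 did not. Rn7sk, a small RNA that holds the elongation factor P-TEFb inactive, had 6.56, 6.34 and 8.22 scaled FPKM in the low-share and 27.1, 23.6 and 18.8 in the high-share libraries, a log2 fold change of 1.71 ± 0.30, and it did not pass without sham3 or sham4 (adjusted p up to 0.0582).

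Of 27 hepatocyte transcription factors and nuclear receptors 4 passed higher and 0 lower (median 0.15), with 0, 1, 0, 0, 0 and 2 higher in the omissions. The share was 14.8%, against 7.74% higher and 15.6% called either way over all genes. Nr1i3, the xenobiotic receptor CAR, had 65.5, 81.1 and 109 against 235, 217 and 157 scaled FPKM and a log2 fold change of 1.25 ± 0.31, and it did not pass without sham1, sham3, sham4 or sham5 (adjusted p up to 0.107). Its target Cyp2b10, above, went the other way. Nr1h4, the bile acid receptor FXR, was higher by 1.14 ± 0.32, but it did not pass in any of the 6 omissions (adjusted p up to 0.127). Foxa2 and Tcf7l2 were higher by 1.28 ± 0.35 and 1.24 ± 0.34. Foxa2 did not pass without sham1, sham2, sham3, sham4 or sham5 (adjusted p up to 0.108), and Tcf7l2 did not pass in any of the 6 omissions (adjusted p up to 0.122).

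Among 23 interferon-stimulated genes 3 passed higher and 0 lower (median 0.51), with 1, 2, 1, 2, 2 and 3 higher in the omissions. Oas2, an enzyme that makes the activator of the antiviral RNase L, had 1.11, 1.15 and 1.09 scaled FPKM in sham1, sham3 and sham4 and 4.48, 3.24 and 4.59 in sham2, sham5 and sham6. The low-share libraries were nearly equal and all under each high-share one, with a log2 fold change of 1.88 ± 0.23 (edgeR adjusted p = 0.0135), and it passed in all 6 omissions (adjusted p up to 0.0490). Stat2, which carries the interferon signal to the nucleus, was higher by 1.52 ± 0.37, but it did not pass without sham1, sham2, sham3 or sham4 (adjusted p up to 0.0835). Zbp1, a sensor of nucleic acids, was higher by 1.44 ± 0.32, but it did not pass without sham1, sham2, sham3 or sham5 (adjusted p up to 0.0809).

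Socs3, a feedback inhibitor of cytokine signalling, had 6.08, 13.9 and 11 against 39.7, 29.3 and 42.2 scaled FPKM and a log2 fold change of 1.84 ± 0.31, and it did not pass without sham4 (adjusted p up to 0.0571). Cish, an inhibitor in growth hormone signalling, had 0.282, 1.44 and 2.81 against 7.08, 13.3 and 3.67 scaled FPKM and a log2 fold change of 2.4 ± 0.69, but it did not pass without sham1, sham2, sham3, sham4 or sham5 (adjusted p up to 0.119). Cxcl1, which attracts neutrophils, had 28.1, 19 and 44 against 127, 46.8 and 215 scaled FPKM and a log2 fold change of 2.09 ± 0.52, but it did not pass without sham1, sham2, sham3, sham4 or sham6 (adjusted p up to 0.0927). The classes did not overlap for these 3 genes, although Cxcl1 in sham5 lay close to its level in sham4. Over all genes tested, 21.9% were higher without overlap. Of 24 acute phase genes 1, Socs3, passed (4.17%, against 15.6% of all genes). Hamp, the iron hormone hepcidin, did not pass with 537, 1161 and 1992 against 3297, 2174 and 6122 scaled FPKM (edgeR adjusted p = 0.0609), nor did Saa1 (adjusted p = 0.983).

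Genes with the largest differences upward ranged from low to high levels. Xlr4a had 0.377, 0.121 and 0.140 scaled FPKM in the low-share and 2.86, 1.66 and 3.24 in the high-share libraries and a log2 fold change of 3.59 ± 0.55, and it did not pass without sham4 (adjusted p up to 0.0520). Xlr3b, of the same X-linked family with near-identical copies, had 0.191, 0.114 and 0 against 0.608, 0.264 and 3.1 scaled FPKM, with sham6 far above the rest and sham4 at 0, and it did not pass without sham1, sham2, sham3, sham4 or sham6 (adjusted p up to 0.164). Amn1 had 4.13, 3.02 and 3.77 against 37.6, 15 and 11.1 scaled FPKM and a log2 fold change of 2.54 ± 0.44, and it did not pass without sham3 or sham4 (adjusted p up to 0.0587). Ttc41 had 1.31, 1.82 and 1.66 against 8.88, 8.51 and 5.88 scaled FPKM and a log2 fold change of 2.28 ± 0.24 (edgeR adjusted p = 0.0113), and it passed in all 6 omissions (adjusted p up to 0.0490). Serpina4-ps1 had 69.9, 96.5 and 157 scaled FPKM in sham1, sham3 and sham4 and 2960.3, 201 and 589 in sham2, sham5 and sham6, a log2 fold change of 3.53 ± 0.87 carried mainly by sham2, and it did not pass without sham1, sham2, sham3 or sham4 (adjusted p up to 0.0890).

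Mmp7, a matrix protease, had 0.271, 0.116 and 0.134 against 0.587, 0.935 and 2.1 scaled FPKM and a log2 fold change of 2.77 ± 0.69, and it did not pass without sham1, sham3, sham4, sham5 or sham6 (adjusted p up to 0.105). Slfn1, a gene of the Schlafen family, had 0.233, 0.166 and 0.230 against 1.06, 0.877 and 2.27 scaled FPKM and a log2 fold change of 2.73 ± 0.54, and it did not pass without sham1, sham3 or sham4 (adjusted p up to 0.0661). Tnfsf14, a ligand of the tumour necrosis factor family, had 0.0784, 0.635 and 0.465 against 2.38, 1.77 and 2.47 scaled FPKM, and it did not pass without sham2, sham3, sham4, sham5 or sham6 (adjusted p up to 0.0747). No overlap between the classes was part of the rule that named these 3 genes. Downward, Esm1, an endothelial proteoglycan, had 1.24, 2.62 and 0.410 against 0, 0.0866 and 0.158 scaled FPKM and a log2 fold change of -3.98 ± 0.90. It did not pass without sham2, sham4 or sham5 (adjusted p up to 0.0633) and was not tested without sham1 or sham3. Krt23, a keratin, had 3.38, 1.74 and 0.686 against 0.200, 0.464 and 0.106 scaled FPKM and a log2 fold change of -2.89 ± 0.73, and it did not pass without sham1, sham2, sham3, sham4 or sham6 (adjusted p up to 0.0914).

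Called genes were also sorted by features that the split did not use. Protein-coding genes were sorted into 5 equal bins by the GC content of their transcript. In the top bin (55.4% to 69.7% GC) 340 genes were higher and 79 lower, with a median log2 fold change of 0.35, and in the bottom bin (31.0% to 43.7%) 115 were higher and 265 lower, with a median of -0.17. By mean level, 157 were higher and 348 lower in the top bin (median -0.32) and 104 and 40 in the bottom bin (median 0.24). By the share of the gene that is intron, 236 were higher and 147 lower in the bottom bin and 98 and 225 in the top. By exonic size, the medians ran from -0.16 in the bin of shortest genes to 0.06 in the longest. The part of GC content, level, intron share and size in the differences was not tested. Depth also moved with the class, and counts thinned to the lowest nuclear total, 7301258, gave 2125 calls, an alternative chosen after seeing the data.

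By biotype, 31 of 191 processed transcripts were higher (16.2%) and 0 lower, against 7.74% higher and 7.86% lower over all genes. Near the share higher of all genes were antisense genes, with 33 of 365 higher (9.04%), and lincRNA genes, with 27 of 322 (8.39%), and of these 2 biotypes 4 (1.1%) and 5 (1.55%) genes were lower. Of 372 processed pseudogenes, copies of mature messengers, 18 were higher (4.84%) and 52 lower (14%). Protein-coding genes with an annotated retained-intron transcript had 640 higher and 595 lower of 7322, and those without one 265 and 446 of 4986. By cell component, 131 of 902 genes of the endoplasmic reticulum were lower (14.5%) and 36 higher, 20 of 119 peroxisomal genes lower (16.8%) and 2 higher, and 25 of 373 genes of nuclear speckles lower (6.7%) and 39 higher (10.5%).

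**Figure D5:**
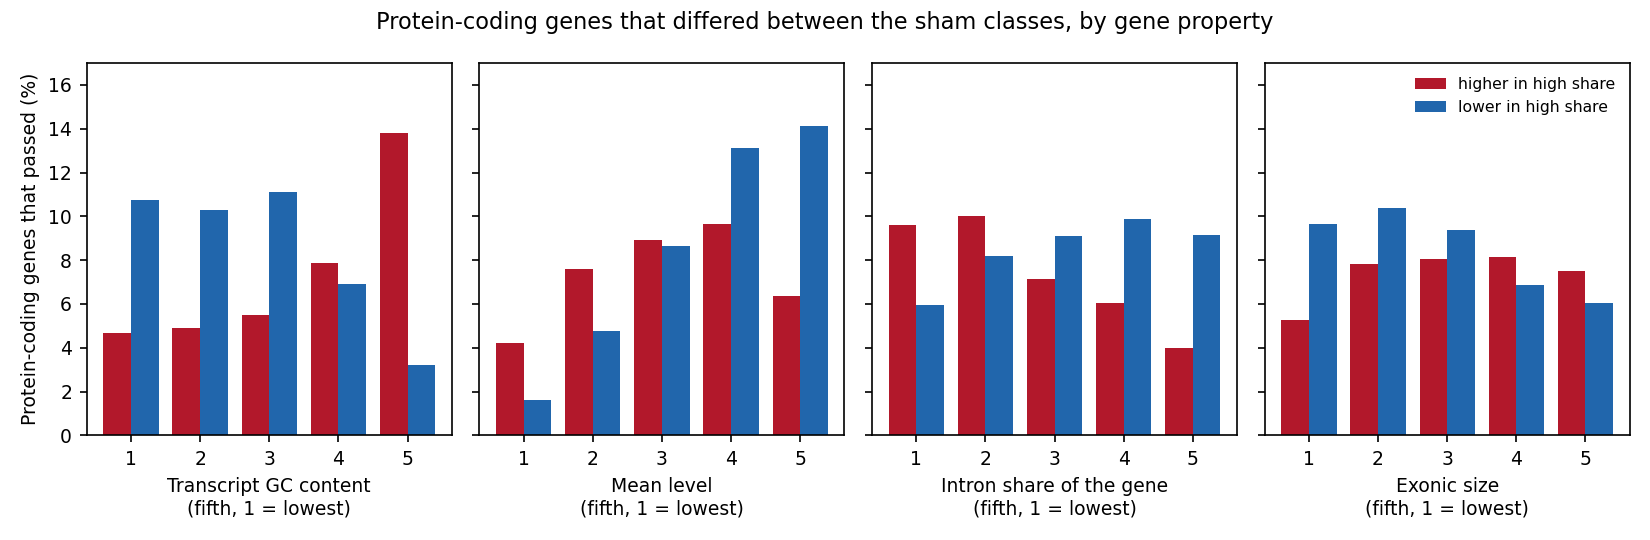
Bars give the percent of protein-coding genes in each of 5 equal bins that passed edgeR's test, red where higher and blue where lower in the high-share libraries, for transcript GC content, mean level, intron share and exonic size. In GC content the red bars go from 4.67% in the lowest to 13.8% in the highest bin and the blue ones from 10.8% to 3.21%.

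Among lists of stress and detoxification genes the share called was 15% for the unfolded protein response, 14.3% for antioxidant genes, 12.5% for fatty acid oxidation and ketone synthesis and 26.3% for mitophagy and mitochondrial dynamics, against 15.6% of all genes. Values in brackets after their genes are log2 fold changes. Of 20 genes of the unfolded protein response 3 passed lower (Canx, Atf6 and Dnajc3) and 0 higher, with a median of -0.46, and 2, 3, 1, 0, 2 and 5 were lower without sham1 to sham6 in turn. Of 21 antioxidant genes 3 passed lower, the peroxide-reducing enzymes Gpx1 (-1.98) and Prdx1 (-1.73) and the glutathione transferase Gsta2 (-1.85), and 0 higher (median -0.35). In the omissions 0, 2, 0, 0, 1 and 3 antioxidant genes were lower. Of 24 genes of fatty acid oxidation and ketone synthesis 3 passed lower (Acot1, Hadha and Plin2) and 0 higher (median -0.33), with 1, 1, 0, 0, 1 and 3 lower in the omissions. Of 19 genes of mitophagy and mitochondrial dynamics 4 passed lower, among them the mitophagy receptors Bnip3l (-0.97) and Fundc1 (-1.23) and the inner membrane fusion protein Opa1 (-0.84), and 1 passed higher (median -0.56). There 1, 3, 1, 0, 1 and 5 were lower in the omissions.

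Ccnd1, a cyclin that drives entry into the cell cycle, and Pcna, the replication clamp, were the 2 of 14 proliferation genes that passed, both lower (-1.7 and -1.14), with 1, 1, 0, 0, 2 and 2 lower in the omissions. Slc10a1, the uptake carrier for bile acids, passed lower (-1.39) and was with Nr1h4 one of 2 called among 21 genes of bile acid synthesis and transport, whose median was -0.21 and 0.08 without TMM scaling. Apom, an apolipoprotein that carries sphingolipid, was the 1 gene of 14 apolipoproteins that passed, with 132, 149 and 127 against 27.3, 50.7 and 46 scaled FPKM and a log2 fold change of -1.72 ± 0.26, and it did not pass without sham4 (adjusted p up to 0.0501). The apolipoprotein median was -0.09 and 0.20 without TMM scaling. The replication-independent histone H2az1 passed lower with 27.8, 26.5 and 22.2 against 9.35, 9.56 and 10.3 scaled FPKM and a log2 fold change of -1.39 ± 0.19, and it passed in all 6 omissions (adjusted p up to 0.0490). Of 12 p53 targets 1, the pro-apoptotic Bax, passed higher (1.07), with a median of -0.06 that was 0.29 without TMM scaling. The counts higher among p53 targets were 0, 1, 0, 0, 0 and 1 in the omissions, and those lower among bile acid genes 0, 1, 0, 0, 1 and 1. Called shares were 14.3% for proliferation, 9.52% for bile acid, 7.14% for apolipoprotein and 8.33% for p53 genes, against 15.6% of all genes.

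Markers of other cells were measured beside these groups. Blood genes moved with the class: 3 of 6 passed lower, Hbb-bs, Hbb-bt and Alas2, with a summed level of 101 to 354 scaled FPKM in the low-share and 32.8 to 80.7 in the high-share libraries. The blood genes lower numbered 2, 1, 2, 1, 3 and 2 without sham1 to sham6 in turn. Hbb-bs, a beta globin, had 174, 65.8 and 41.8 against 4.35, 25 and 7.13 scaled FPKM, with sham1 far above the others, and it did not pass without sham1, sham2, sham3, sham4 or sham6 (adjusted p up to 0.0740). Hbb-bs and Hbb-bt are near-identical copies whose reads may be shared. Hba-a1 overlapped between the classes and did not pass (edgeR adjusted p = 0.104). Of 10 B cell markers 1 passed higher, and their summed level was 8.36 to 21.3 against 29.9 to 35.4 scaled FPKM. Csf3r was the 1 neutrophil gene of 3 that passed higher, in a list at 4.78 to 18.9 against 11.9 to 36.5 scaled FPKM. In the omissions 0, 0, 2, 0, 1 and 0 B cell and 1, 0, 0, 0, 1 and 1 neutrophil genes were higher. Called were 50% of the blood, 10% of the B cell and 33.3% of the neutrophil genes, against 15.6% of all genes. Their part in the differences was not tested.

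Of 12 Kupffer cell, 9 monocyte, 16 stellate cell, 4 T and NK cell and 8 dendritic cell markers edgeR called 0, with 1, 1, 5, 0 and 2 at an unadjusted p under 0.05. DESeq2 called 1, 0, 3, 0 and 0 of them, and limma called 0. limma tested only the 11385 genes with at least 1 FPKM in 3 libraries or more. Markers at low levels may therefore not have been tested by it. Summed levels overlapped for Kupffer cell genes (84.7 to 173 against 97.7 to 151 scaled FPKM), monocyte genes (56.4 to 96.1 against 30.4 to 101) and stellate cell genes (75.2 to 123 against 86.8 to 115). Of 16 sinusoidal endothelial markers 1, Lyve1, passed lower, and it did not pass without sham1, sham2, sham3 or sham5 (adjusted p up to 0.0842). The share called in that list was 6.25%, against 15.6% of all genes. Of the pancreas genes Cela1 alone was tested and had a log2 fold change of -2.07 ± 0.43, but it did not pass without sham1, sham2, sham4 or sham5 (adjusted p up to 0.0641), while Prss2, Try4 and Try5 were at 0. Adiponectin (Adipoq) and leptin (Lep) were at 0 in all 6 libraries.

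Clock, heat shock and immediate early genes held 2, 1 and 1 calls, which is 11.1%, 5.56% and 5% of each list, against 15.6% of all genes. Of 18 clock genes Per2 passed higher (1.14), but not without sham1, sham3, sham4 or sham5 (adjusted p up to 0.0970). Rora passed lower (log2 fold change -0.79), but in none of the 6 omissions (adjusted p up to 0.110), and Dbp did not pass (-0.49, edgeR adjusted p = 0.281). Pdk4, which spares glucose in fasting, had 50.1, 3.16 and 3.2 against 1.58, 0.647 and 3.05 scaled FPKM, high in sham1 alone, and did not pass (edgeR adjusted p = 0.0585). Of 18 heat shock genes 1, Hspd1, passed lower, with a median of -0.05 that was 0.29 without TMM scaling. Hspd1 did not pass without sham1, sham3, sham4 or sham5 (adjusted p up to 0.0939), and it overlaps Hspe1 on the opposite strand. Of 20 immediate early genes 1, Myc, passed higher, with 3.04, 3.48 and 2.71 against 5.23, 17.6 and 7.39 scaled FPKM and its peak in sham5, but it did not pass without sham1, sham3, sham4 or sham5 (adjusted p up to 0.0896). The Y-linked genes Eif2s3y, Kdm5d and Uty were detected in all 6 libraries, and Xist was at most 0.254 scaled FPKM.

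In IR 15 of 18 heat shock genes passed lower in the high-share libraries, with a median log2 fold change of -2.18, and 6 of 20 immediate early genes passed lower, with a median of -2.20 (6.59% of all genes were lower there). The difference of the IR and sham contrasts was itself tested over 15266 genes, and edgeR called 1 (0.00655%), with 1771 at an unadjusted p under 0.05. The gene was Zfand2a, a stress-induced gene that assists the proteasome. It had 2.38, 2.54 and 2.12 scaled FPKM in sham1, sham3 and sham4 and 2.21, 3.89 and 2.46 in sham2, sham5 and sham6. In IR it had 28.2, 78.0 and 107 in IR4, IR5 and IR6 and 5.49, 5.99 and 5.32 in IR1, IR2 and IR3. The sham classes overlapped and the IR classes did not, with log2 fold changes of 0.28 ± 0.28 (adjusted p = 0.489) and -3.66 ± 0.46 (adjusted p = 0.0108) and a difference of -3.95 ± 0.53 (edgeR adjusted p = 0.0476). With the replicate number as a block 0 genes passed, with 1785 at an unadjusted p under 0.05. Of the 18 heat shock genes 0 passed this test of the difference in edgeR, with 16 at an unadjusted p under 0.05, and of the 20 immediate early genes 0 passed, with 7 at an unadjusted p under 0.05 (smallest adjusted p = 0.0942 in both lists). The 4 genes higher in sham and lower in IR, Myc, Chka, Gm15441 and Slc22a4, did not pass it either.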

How the data were processed

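Liver RNA of 18 libraries was sequenced, and 6 sham libraries carry the comparison. Per the submitters' processing notes, cutadapt 1.9.1, HISAT2 2.2.1, DESeq2 and build GRCm39 were used. No source used here names the counter, its use of strand or the annotation, so these are not given. The authors deposited raw read counts per gene and FPKM values for 56691 genes. The deposited FPKM were recomputed from the counts, exonic sizes and library totals, and 100% agreed within 0.0051. They hold mitochondrial reads in their total, so scaled FPKM were computed here from counts over nuclear totals times the TMM factor of the group's fit.

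Genes kept by edgeR's filter (count minimum 10, total minimum 15) were tested with edgeR 4.0.16 (R 4.3.3), quasi-likelihood, with Benjamini-Hochberg adjusted p, within sham, within IR and for their difference, and over the share in IR-Ori. limma 3.58.1 on log2(FPKM + 1), with FPKM over nuclear totals and no TMM factor, and DESeq2 1.42.0 were alternatives. The pipeline was tested on simulated data. Wilson 95% intervals of the shares were 0.0278 to 0.0543 percentage points wide in sham and cover counting error only.

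The classes, the 66 gene lists and the tests were chosen with earlier results of these data known. Named genes were the 10 protein-coding genes with the largest change each way (passing, no overlap, class mean of 1 FPKM or more on the higher side), the best 4 members by p in every list, and a set of genes given by name, 276 in all. Other called members of a list were picked out once their values were known. Biotype, GC content and shared sequence came from GENCODE M21 (GRCm38), matched by identifier for 52073 genes. Coordinates of GRCm38 are given for promoters alone.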

Additional observations from a re-analysis of the deposited data

Results flagged for a closer look

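Of 98 values examined over the 6 sham libraries, 13 had 1 library farther from the other 5 than Dixon's 95% critical value for 6 samples allows (gap over range). The nominal rate of about 1 in 20 holds for independent, normally distributed values chosen beforehand. Most values here are levels of genes named from these same data, so the count cannot be set against that rate. sham2 was the lowest in the share of the 10 largest nuclear genes (9.04% against 14.9% in the next library, gap 0.711) and in Cox4i1 (133 against 291 scaled FPKM, 0.638). It was the highest in Amn1 (37.6 against 15, 0.653) and in Serpina4-ps1 (2960.3 against 589, 0.82).

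sham1 was the highest in the globins Hbb-bs (174 against 65.8 scaled FPKM, gap 0.637), Hbb-bt (23.2 against 9.22, 0.626) and Hba-a1 (121 against 42.6, 0.727). It was also the highest in Cyp2b10 (29.7 against 11.1, 0.634) and in the fasting gene Pdk4 (50.1 against 3.20, 0.948). sham4 was the highest in Fasn (109 against 43.3 scaled FPKM, 0.655) and sham5 in Myc (17.6 against 7.39, 0.685). sham6 was the highest in Xlr3b (3.10 against 0.608 scaled FPKM, 0.804) and in the metallothionein Mt1 (1709 against 582, 0.729).

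Zfand2a was the gene whose contrast between share classes differed between IR and sham, by -3.95 on the log2 scale in edgeR's interaction test (adjusted p = 0.0476).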

How the results depend on the processing

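In sham the 2225 calls became 3600 with no filter on low counts, 3404 with DESeq2, 5011 with a slope over the share, and 72 to 2046 when 1 library was left out. Settings with fewer or other scaling choices stayed within 1.5 times: 2217 with DESeq2's size factors in edgeR, 2776 without scaling, 2192 with mitochondrial rows kept, 2271 with at least 50 counts in 3 libraries, 2493 with all 18 libraries, and 1733 and 1779 with limma at pseudocounts of 1 and 0.1. The share of calls that were higher was 49.6% in the comparison as reported, 78.4% without scaling and 13.9% without sham4. It was 69.2% and 70.9% with limma, whose FPKM values had no TMM factor either. Chosen after seeing the data, protein-coding genes alone gave 2133 calls, thinned counts 2125 and the fit without rows that share mitochondrial sequence 2215. No named gene that was called changed direction in any of these settings, which was likely beforehand for genes called on the same libraries.

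In IR the 1607 calls became 2896 with no filter and 0 to 1927 with 1 library left out. The IR-Ori slope called 0 to 1452 genes with 1 library left out, the 1452 without IR-Ori6. The difference between IR and sham called 1 gene, and 0 with a replicate block. Same-numbered sham and IR libraries correlated at -0.10 to 0.15 after removal of class means, and none was highest with its own number, so the numbers are not taken to pair the samples. With 3 libraries in a class and the split taken from the data, the share itself and the nuclear total cannot be told apart from the class. The causes of the changes between settings were not tested. In the omissions, the smaller class cannot be told apart from the loss of that particular library.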
